A study of Mus musculus with 16 samples.

Results

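AMP-activated protein kinase (AMPK) subunits and regulators of the mTOR complexes were examined for N6-methyladenosine (m6A), the commonest internal modification of mRNA. Peaks of 10 genes were taken from the m6A peak lists of 8 mouse livers by gene name: Prkaa1, Prkaa2, Prkab1, Prkab2, Prkag1, Prkag2, Tsc1, Tsc2, Rptor and Rictor. These genes held 71 of the 77183 peaks, and 7 of the 10 had a peak in at least 1 mouse, out of 7693 such genes in all. Merging overlapping peaks of a gene over the 8 lists gave 16 regions, of 17574 in all. The HFrD livers came from 4 male C57BL/6J mice that ate the high-fructose diet (HFrD) for 2 weeks, with 70% of its energy from carbohydrate, 20% from protein and 10% from fat. They were set against livers of 4 male mice of this strain on a normal diet (ND), and the age given for the animals is 10 to 11 weeks. Labels number the HFrD mice 1, 2, 5 and 7 and the ND mice 1, 3, 6 and 7. The labels name no transgene or deletion, and do not give cages or litters. In MeRIP-seq, RNA fragments bound by an antibody against m6A are sequenced beside input RNA, and a peak is a stretch where the bound fragments exceed the background.

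AMPK is a trimer that senses a falling energy charge. Its alpha subunit, encoded by Prkaa1 or Prkaa2, is the kinase, its beta subunit (Prkab1 or Prkab2) is the scaffold and binds glycogen, and its gamma subunit (Prkag1 or Prkag2) binds AMP and ATP. In the liver, active AMPK restrains the synthesis of fatty acids and cholesterol by phosphorylating acetyl-CoA carboxylase and HMG-CoA reductase. It also opposes mTORC1, the growth-promoting kinase complex, by phosphorylating the tuberous sclerosis protein TSC2 and the mTORC1 subunit Raptor. TSC1 (hamartin) stabilises TSC2 (tuberin), which switches off Rheb, the activator of mTORC1. Raptor, encoded by Rptor, brings substrates to mTORC1, and Rictor is the defining subunit of mTORC2, which phosphorylates Akt.

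Sequences under some of the peaks are shown first, beginning with the region of highest median fold enrichment. Whether their letters bear on the presence of a peak was not tested. Fold enrichment is the ratio of immunoprecipitated to background signal that the authors gave for each peak. The region of highest median fold enrichment was exon 1 of Prkaa2, which spans the start codon, and its coding part is printed beside the matching part of exon 1 of Prkaa1. Letters come from the RefSeq genome GRCm38.p6, the assembly of mm10, on the transcribed strand from 5′ to 3′. Capitals mark the pentamer GGACN, where N is any base but G, and its forms with A in place of either or both of the first letters. These 12 pentamers are the form in which m6A is usually found, only the transcribed strand was searched, and neighbouring matches could share a base.
Prkaa2 exon 1, coding part, chr4:105109705-105109798, minus strand: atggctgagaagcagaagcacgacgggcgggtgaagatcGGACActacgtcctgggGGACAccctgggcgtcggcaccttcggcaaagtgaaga
Prkaa1 exon 1, matching part, chr15:5143902-5143995, plus strand: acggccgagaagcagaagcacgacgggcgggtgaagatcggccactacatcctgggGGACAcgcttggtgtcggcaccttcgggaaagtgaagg

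The 2 stretches were identical at 85 of 94 positions (90.4%), and the longest identical run was 35 nt, against reads of 150 bases. Positions were counted from the first base of the Prkaa2 start codon, and 1 of the 9 differences fell in a marked pentamer. At A42C the GGACA of Prkaa2 is interrupted in Prkaa1, while the following GGACA is shared. Counted over the whole region, exon 1 of Prkaa2 held 3 of the 12 pentamers, where regions within 10% of its length held 3 at the median. The region in exon 1 of Prkaa1, which begins upstream of the matching part, held 2 against a median of 2. Exon 1 of Prkaa2 held a peak in 4 of 4 HFrD and 4 of 4 ND mice, and exon 1 of Prkaa1 in 1 of 4 HFrD and 0 of 4 ND mice. The match of letters is a description of these windows and does not place a methylated base. Both exons are thus close copies over this stretch, and how reads were divided between them was not tested.

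The first exon of Prkab1 also spans its start codon and is shown because its coding part holds 3 copies of GGACA and no other marked pentamer. The whole region held 3 of the 12 pentamers, where regions within 10% of its length held 5 at the median.
Prkab1 exon 1, coding part, chr5:116024091-116024249, minus strand: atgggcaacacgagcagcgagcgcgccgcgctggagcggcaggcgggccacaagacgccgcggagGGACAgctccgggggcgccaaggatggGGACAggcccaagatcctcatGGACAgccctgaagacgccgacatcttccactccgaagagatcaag

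The pentamer GGACT occurred in regions of Tsc1, Rptor and Rictor, and in no region of the AMPK subunits. Among regions of all genes within 10% of their length, the share with GGACT ran from 10.7% for exon 1 of Prkaa1 to 73.4% for the last exon of Prkab1. Outside their regions, the mRNAs of Prkaa1 and Prkaa2 held 4 and 5 copies. GGACT is shown with the 8 bases on either side, and in these windows the capitals mark GGACT alone.
Tsc1 exon 19, coding, chr2:28681194-28681214, plus strand: aagctggaGGACTgcagaaac
Tsc1 exon 23, coding, chr2:28687039-28687059, plus strand: ctgggcaaGGACTcgggcaca
Rptor exon 34, 3'UTR, chr11:119899322-119899342, plus strand: agttgaaaGGACTgacaggac
Rictor exon 31, coding, chr15:6786987-6787007, plus strand: atggacacGGACTgtggaagt
Rictor exon 38, 3'UTR, chr15:6796280-6796300, plus strand: cctactgtGGACTtcctgaaa

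GGACT was found in 5 of the 16 regions (31.2%), against 35.5% of the 16283 regions of all genes with a transcript model. Any of the 12 pentamers was found in 93.8% of the 16 regions and in 92.6% of all. Beside the mean number of GGACT in regions of all genes within 10% of their length, the last exon of Rptor had 1 against 2.15 and exon 31 of Rictor 1 against 1.29. The last exon of Rictor had 4 against 1.62 and that of Tsc1 2 against 1.61. Exon 19 of Tsc1, found in HFrD mouse 7 alone, had 1 against 0.107. These regions were set beside the mean because they hold GGACT. For the regions without it, the mean ran from 0.111 for exon 1 of Prkaa1 to 1.46 for the last exon of Prkab1. The mRNA of Prkab1 holds no GGACT anywhere, while its last exon carried a peak in all 8 mice. A single region held none of the 12 pentamers. It is exon 20 of Tsc1, which held a peak in 2 of 4 HFrD and 2 of 4 ND mice and is shown as the exception.
Tsc1 exon 20, coding, chr2:28681912-28682034, plus strand: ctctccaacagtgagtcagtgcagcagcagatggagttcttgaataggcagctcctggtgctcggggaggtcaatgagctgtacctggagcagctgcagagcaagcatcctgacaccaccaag

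The HFrD lists held 8055 to 10093 peaks and the ND lists 8959 to 11517, and read depth is unknown because only peaks were analysed. A gene with little RNA, or a shallow library, may lack a peak whatever its methylation. Fewer cells of a type and less RNA per cell cannot be told apart in whole liver. The false discovery rate in the lists lay between 57.67% and 100% for the 71 peaks and was at or under 5% for 0 of them, and for 7 of all 77183 peaks. The score, which is -10 times the log10 of the peak's p-value, lay between 53.2 and 1873.09 for the 71 peaks. Fold enrichment ran from 4.21 to 28.37 with a median of 6.98, and the median of all peaks was 7.76. The peak exactly filled an exon in 46 of 71 cases (64.8%), against 71% of all peaks with a transcript model, so the position within such an exon is not resolved. Peaks do not measure expression, and the tissue label could not be checked by them: of 12 hepatocyte markers 5 had a peak in any mouse, and Alb, the albumin gene, had none. Of the markers with any peak, those of Kupffer cells had one in 60.7% of gene and mouse cases in HFrD and 64.3% in ND, and those of endothelium in 79.2% in HFrD and 87.5% in ND. For stellate cells the share was 75% in HFrD and 75% in ND, and for cholangiocytes 50% in HFrD and 75% in ND. The hepatocyte markers went the other way, with 40% in HFrD and 35% in ND. Of the 10 Kupffer cell markers, 2 had a peak in more HFrD than ND mice and 4 in fewer (such as Cd5l and C1qb, in 1 HFrD and 3 ND mice each). Marco had a peak in 4 HFrD and 0 ND mice (Fisher's exact test, p = 0.0286, adjusted p = 1). With 4 mice a diet this test can give no lower unadjusted p. The part of other cells in the results below was not tested.

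The first comparison asked in which livers each gene carried a peak. Of the 10 genes, 5, 6, 5 and 5 had a peak in HFrD mice 1, 2, 5 and 7, and 6, 7, 6 and 6 in ND mice 1, 3, 6 and 7. The means were 5.25 ± 0.5 genes in HFrD and 6.25 ± 0.5 in ND livers (SD, n = 4 each). The groups touched at 6 genes, and with lists shortened to their 8055 highest-scoring peaks, or limited to scores from 100 upward, the difference of -1 gene was -0.5. Prkaa2, Prkab1 and Tsc1 had a peak in all 8 mice, which is 3 of the 7 genes with any peak, against 39.6% of all genes. Prkaa1, Rptor and Rictor each had a peak in 3 of 4 HFrD mice and 4 of 4 ND mice, and each lacked it in a different HFrD mouse: Prkaa1 in mouse 7, Rptor in mouse 1 and Rictor in mouse 5. Prkag2 had a single peak, in ND mouse 3. Prkab2, Prkag1 and Tsc2 had no peak in the lists analysed, and no peak under another gene name lay over their exons.

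**Figure D1:**
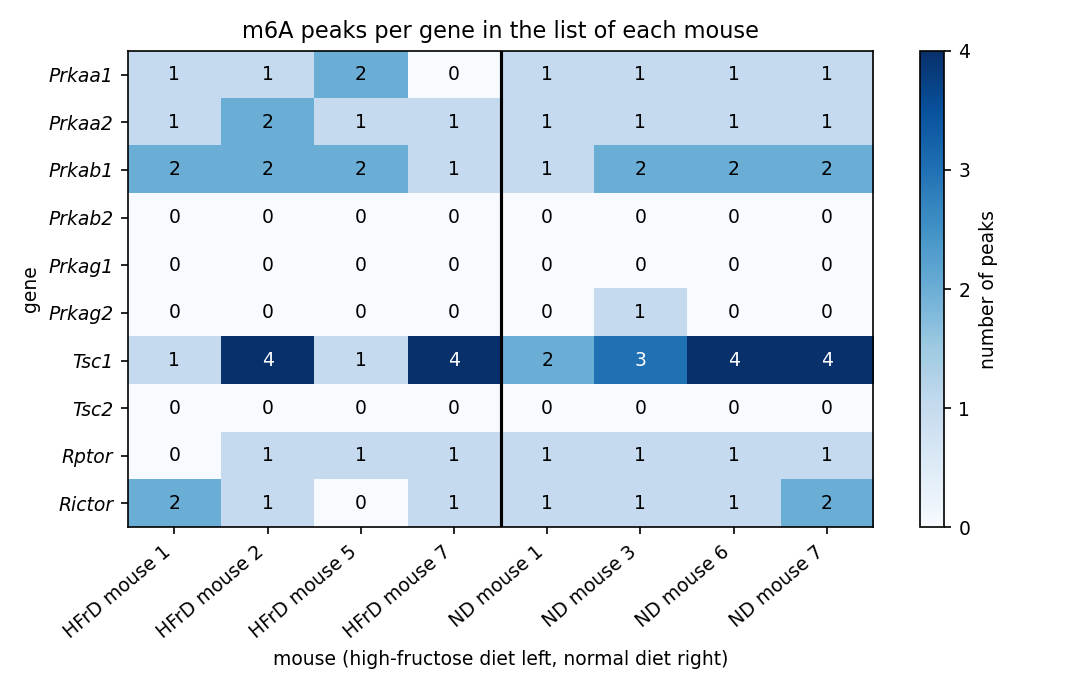
Number of m6A peaks (colour and digit) of each of the 10 genes (rows) in each mouse (columns), with the 4 HFrD mice to the left of the line and the 4 ND mice to the right. Prkaa2, Prkab1 and Tsc1 are filled in all 8 columns, Prkab2, Prkag1 and Tsc2 in none, and Tsc1 varies most, from 1 to 4 peaks in HFrD and from 2 to 4 in ND.

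None of the genes was present in every mouse of one diet and absent from the other. Fisher's exact test was run on the 2839 genes present in no fewer than 2 lists and missing from no fewer than 2. Among them, such a full separation occurred toward HFrD in 0.423% (12 genes) and toward ND in 0.986% (28 genes). In lists of equal length it was 21 genes toward HFrD and 19 toward ND. No gene passed after Benjamini-Hochberg adjustment, against 40 at an unadjusted p under 0.05, and no gene of the 10 fell in the testable range. Fisher's exact test with 4 mice a diet cannot fall under p = 0.0286. Even a fully separated gene could not pass unless a large share of the genes separated too, so the adjusted test could not decide on single genes. Genes and mice together gave a peak in 75% of cases in HFrD and 89.3% in ND for the 7 genes with any peak. Over all genes with a peak these shares were 64.5% in HFrD and 70.2% in ND. Of the 7 genes, 4 had a peak in more ND than HFrD mice, 3 in equally many and 0 in more HFrD than ND mice. This split depended on the setting. In lists of equal length, or with scores under 100 dropped, Prkab1 had a peak in 25 percentage points more HFrD mice. Rictor then had a peak in equally many mice of each diet, while Prkaa1 and Rptor still had one in more ND mice. Prkag2 did so in lists of equal length only. Among all 7693 genes, 1364 had more HFrD than ND mice with a peak and 2446 fewer.

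The number of peaks was 7, 11, 7 and 8 in HFrD mice 1, 2, 5 and 7, and 7, 10, 10 and 11 in ND mice 1, 3, 6 and 7. The diets overlapped, at 8.25 ± 1.89 peaks in HFrD and 9.5 ± 1.73 in ND livers (SD, n = 4 each). The difference of -1.25 peaks became -2.17 when HFrD mouse 2 was left out, -2.08 without ND mouse 1, -0.75 without ND mouse 7 and -0.833 without either HFrD mouse 1 or HFrD mouse 5. Per 10000 peaks of the list, the genes held 8.11, 11.3, 6.94 and 9.93 peaks in the HFrD mice, and 7.81, 10.2, 9.62 and 9.55 in the ND mice, which also overlapped.

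Along the mRNA, the genes were marked at start codons, in coding exons and in last exons. Regions were placed by their midpoint. Of the 16 regions, 4 lay at a start codon (within 200 nt on either side), and all 4 belonged to AMPK alpha or beta subunits. Among these, exon 1 of Prkaa1 and exon 2 of Prkaa2 were found in 1 mouse each, and exon 2 of Prkaa2 does not reach the start codon. In the coding sequence (CDS) lay 8 regions, 5 of them in Tsc1 and 1 each in Prkaa1, Prkag2 and Rictor. The remaining regions were 1 at a stop codon and 3 in the 3' untranslated region (3'UTR). As shares of the 16 regions, 25% lay at the start codon, 50% in the CDS, 6.25% at the stop codon and 18.8% in the 3'UTR. Over all 16111 placed regions the shares were 25.5% at the start codon, 47.8% in the CDS, 11.8% at the stop codon and 11.4% in the 3'UTR. Prkab1, Tsc1, Rptor and Rictor carried a peak in the last exon, and the share of all genes that did so was not counted. No exon of another gene overlapped any of the 16 regions.

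**Figure D2:**
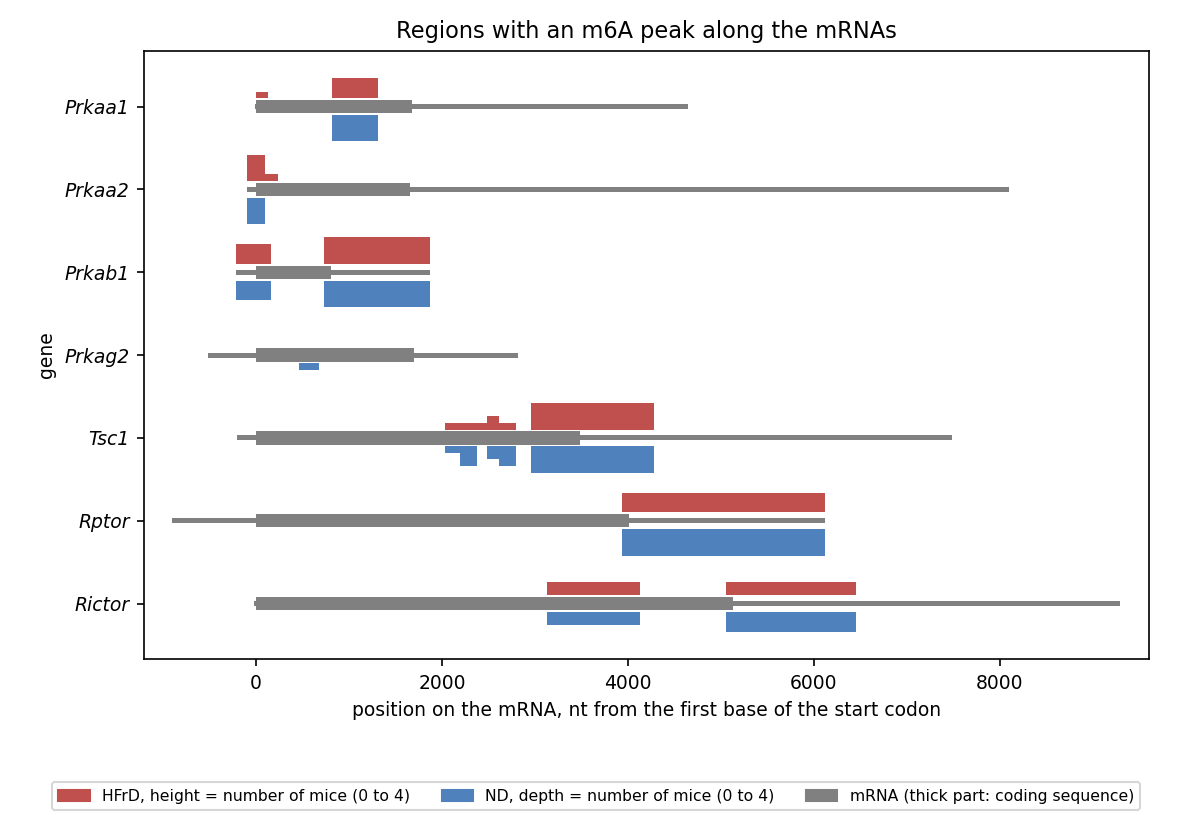
Regions with an m6A peak along the mRNAs of the 7 genes with any peak, by position in nt from the start codon (grey bar, thick where coding). Red blocks above the mRNA rise with the number of HFrD mice that held the region (0 to 4) and blue blocks below fall with the number of ND mice. Prkaa2 is covered in all 8 mice around its start codon, and the last exon is covered in all 8 mice in Tsc1 and Prkab1, in 7 in Rptor and in 5 in Rictor.

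For single regions, 3 of 16 were found in all 8 mice (exon 1 of Prkaa2, exon 7 of Prkab1 and exon 23 of Tsc1), against 24.7% of all regions. Full separation by diet occurred in 0 of 16, against 0.215% toward HFrD and 0.86% toward ND of the 7446 regions testable by Fisher's exact test. No region of any gene passed after adjustment, against 80 at an unadjusted p under 0.05. The same floor of p applied, so the adjusted test could not decide on single regions either.

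The kinase subunits differed in where they were marked. Prkaa2, which encodes the alpha2 catalytic subunit, held its region of 194 bp in exon 1 of 9 (chr4:105109705-105109898, mm10). Its fold enrichment was 17.73, 27.24, 12.09 and 17.36 in HFrD mice 1, 2, 5 and 7, against 11.84, 13.28, 14.94 and 28.37 in ND mice 1, 3, 6 and 7. The diets overlapped over almost their whole range, with HFrD mouse 2 and ND mouse 7 high above the others. Within their lists these peaks ranked between percentiles 74.4 and 96.3 of fold enrichment. HFrD mouse 2 also had a peak of 5.98-fold enrichment in exon 2 of Prkaa2 (chr4:105075414-105075555), a region seen in no other mouse.

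Prkaa1, which encodes the alpha1 catalytic subunit, was marked instead in exon 7 of 9, in the CDS (chr15:5176486-5176972, 487 bp). Fold enrichment there was 7.46, 7.52 and 6.77 in HFrD mice 1, 2 and 5, and HFrD mouse 7 had no peak. In ND mice 1, 3, 6 and 7 it was 5.7, 8.35, 6.74 and 8.79. The values of the 3 HFrD mice lay inside the range of the ND mice. The exon holds 10 of the marked pentamers, 3 of them GGACC, where regions within 10% of its length held 7 at the median. Exon 1 of Prkaa1 gave a peak in HFrD mouse 5 alone, at 5.09-fold enrichment (chr15:5143875-5143995). The long last exons of both kinase genes had no peak.

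Of the scaffold subunits, Prkab1 (beta1) carried peaks and Prkab2 (beta2) none. The last exon of Prkab1, with the 3'UTR (chr5:116013586-116014726, 1141 bp), had fold enrichment of 6.59, 6.21, 8.45 and 5.67 in HFrD mice 1, 2, 5 and 7, against 6.28, 4.68, 11.31 and 5.96 in ND mice 1, 3, 6 and 7. The ND mice spread more widely than the HFrD mice and enclosed them. Exon 1 (chr5:116024091-116024462), whose coding letters are printed above, was found in HFrD mice 1, 2 and 5 at 5.89, 5.95 and 6.35, and in ND mice 3, 6 and 7 at 6.32, 9.51 and 7.14. HFrD mouse 7 and ND mouse 1 had no peak there. The scores of this exon were 54.49, 61.36 and 64.69 in the HFrD mice and 117.16, 290.18 and 117.8 in the ND mice. Dropping scores under 100, or shortening the lists to equal length, left it in 0 HFrD and 3 ND mice. Prkab2 has an mRNA of 4277 nt with 2 copies of GGACT, on chromosome 3 from 97658211 to 97673812.

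Of the nucleotide-binding gamma subunits, Prkag1, with the shortest mRNA of the 10 genes (1639 nt, 2 copies of GGACT), had no peak. It lies on chromosome 15 from 98812797 to 98831508. Prkag2 had its peak in exon 4 of 16, in the CDS (chr5:24947424-24947638), at 6.78-fold enrichment in ND mouse 3 alone. The same presence in ND mouse 3 alone was seen for 168 other genes, among them Ddit4, which encodes REDD1, an inhibitor of mTORC1 that acts through the TSC complex.

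Tsc1 held the most peaks of the 10 genes and Tsc2, its partner, none, although the mRNA of Tsc2 (6353 nt) is of similar length to that of Tsc1 (7683 nt). The Tsc2 mRNA holds 7 copies of GGACT and that of Tsc1 holds 12, and Tsc2 lies on chromosome 17 from 24595816 to 24632676. Tsc1 had 1, 4, 1 and 4 peaks in HFrD mice 1, 2, 5 and 7, against 2, 3, 4 and 4 in ND mice 1, 3, 6 and 7. Means were 2.5 ± 1.73 in HFrD and 3.25 ± 0.957 in ND (SD, n = 4 each). By a two-sided exact permutation test p was 0.657, and the p adjusted over 5368 genes was 1. The difference of -0.75 was -0.25 without HFrD mouse 1 or 5, and -1.25 without HFrD mouse 2 or 7. Over all 5368 genes tested this way, an unadjusted p under 0.05 was reached with more peaks in HFrD by 0.261% and with more in ND by 0.95%. After adjustment 0 of them passed, but the smallest p of this permutation test is 0.0286, so adjustment could not decide on single genes. The same exact permutation test gave p = 1 for Prkaa1, Prkaa2, Prkab1, Rptor and Rictor.

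The constant part of Tsc1 was its last exon, where the region crosses the stop codon (chr2:28686654-28687968, 1315 bp). Fold enrichment was 8.94, 8.39, 10.15 and 5.78 in HFrD mice 1, 2, 5 and 7, against 7.8, 6.4, 5.96 and 7.96 in ND mice 1, 3, 6 and 7. HFrD mice 1, 2 and 5 lay above all ND mice and HFrD mouse 7 below them, so the diets overlapped.

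The variable part of Tsc1 was a run of neighbouring coding exons, 17 to 21, each marked in some mice only. Exon 18 (chr2:28680023-28680205) was found in HFrD mouse 7 at 8.22, and in ND mice 1, 6 and 7 at 5.92, 5.92 and 6.23. Exon 21 (chr2:28685723-28685910) was found in HFrD mouse 2 at 8.78, and in ND mice 3, 6 and 7 at 9.14, 4.21 and 10.04. Both were thus present in 1 HFrD mouse and 3 ND mice (Fisher's exact test, two-sided, p = 0.486, adjusted p = 1). Exon 20 was found in HFrD mice 2 and 7 and in ND mice 6 and 7, exon 17 in HFrD mouse 2 and ND mouse 3, and exon 19 in HFrD mouse 7 alone. Each of these peaks filled its whole exon, of 111 to 188 bp.

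The subunits that define the mTOR complexes both held a region in the last exon, and Rictor held another in the CDS. Rptor held its region in the last of 34 exons, almost wholly 3'UTR (chr11:119897414-119899591, 2178 bp). Fold enrichment was 9.86, 10.34 and 6.74 in HFrD mice 2, 5 and 7, and HFrD mouse 1 had no peak. In ND mice 1, 3, 6 and 7 it was 15, 10.66, 6.7 and 8.7, a range that enclosed the HFrD values. With scores under 100 dropped, the difference in mice with a peak, -25 percentage points, was -50.

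Rictor had 2 regions, and no mouse but HFrD mouse 1 and ND mouse 7 held both. Exon 31 of 38, in the CDS (chr15:6786376-6787381), had fold enrichment of 6.98 and 5.49 in HFrD mice 1 and 2, and of 4.64 and 6.87 in ND mice 1 and 7. The last exon (chr15:6796162-6797560) had 9.64 and 5.21 in HFrD mice 1 and 7, and 6.65, 6.12 and 6.98 in ND mice 3, 6 and 7. Exon 31 was thus found in 2 HFrD and 2 ND mice and the last exon in 2 HFrD and 3 ND mice (Fisher's exact test, p = 1 each). The first 1399 bases of the last exon held the region and the remainder of its 4240 bases none, and 4 copies of GGACT lay within it.

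**Figure D3:**
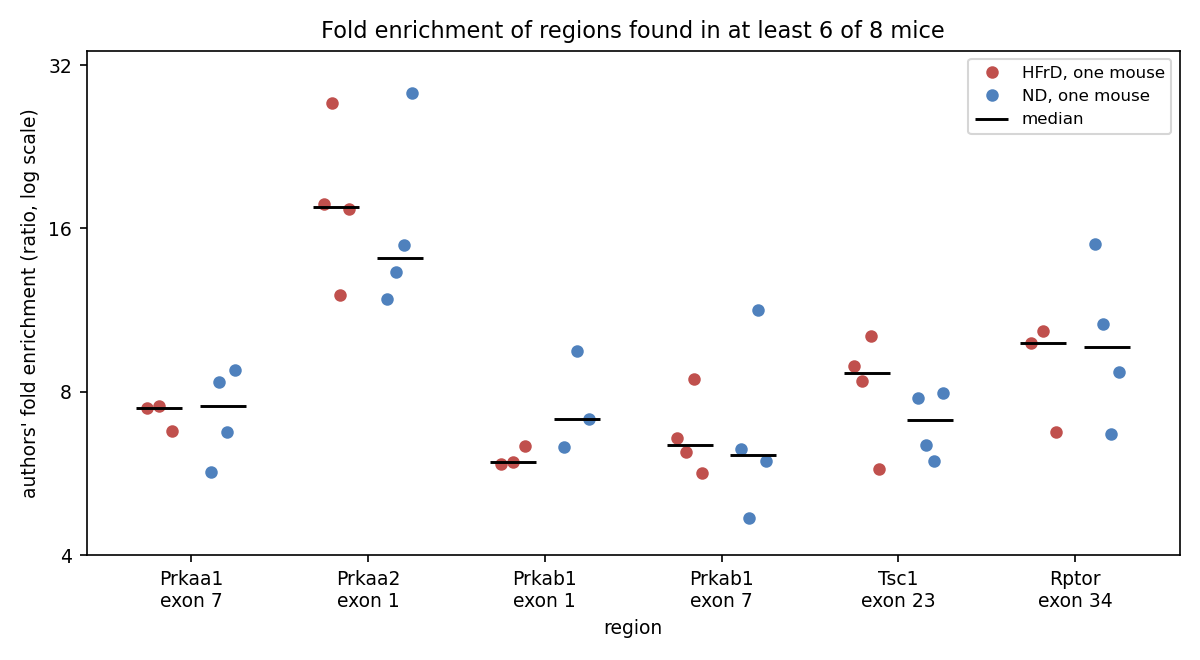
Fold enrichment given by the authors (log scale) for the 6 regions found in at least 6 of 8 mice, with 1 point per mouse that held the region, red for HFrD on the left and blue for ND on the right, and a line at the median. Exon 1 of Prkaa2 lies highest, from 11.84 to 28.37, and the diets overlap in all 6 regions, least in exon 1 of Prkab1, where the highest HFrD value is 6.35 and the lowest ND value 6.32.

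Fold enrichment was then compared in the regions present in every mouse, after centring each mouse on its median. Of 4346 such regions, 0% passed with a higher value in HFrD and 0% with a higher value in ND (limma with empirical Bayes, Benjamini-Hochberg adjusted p under 0.05), against 417 (9.6%) at an unadjusted p under 0.05. For exon 1 of Prkaa2 the difference between HFrD and ND was 0.24 on the log2 scale (SE 0.29, 95% interval -0.37 to 0.85, limma adjusted p = 0.839). For the last exon of Tsc1 it was 0.31 (SE 0.20, interval -0.12 to 0.74, limma adjusted p = 0.653). For the last exon of Prkab1 it was 0.08 (SE 0.25, interval -0.44 to 0.61, limma adjusted p = 0.949), and it turned to -0.06 without ND mouse 3 and -0.01 without ND mouse 7. The difference of Prkaa2 was 0.03 with HFrD mouse 2 left out and 0.10 with ND mouse 1 left out, and it was 0.47 when either HFrD mouse 5 or ND mouse 7 was left out. All 3 intervals include changes of either sign. Over all regions the 10th to 90th percentile of differences ran from -0.39 to 0.37.

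**Figure D4:**
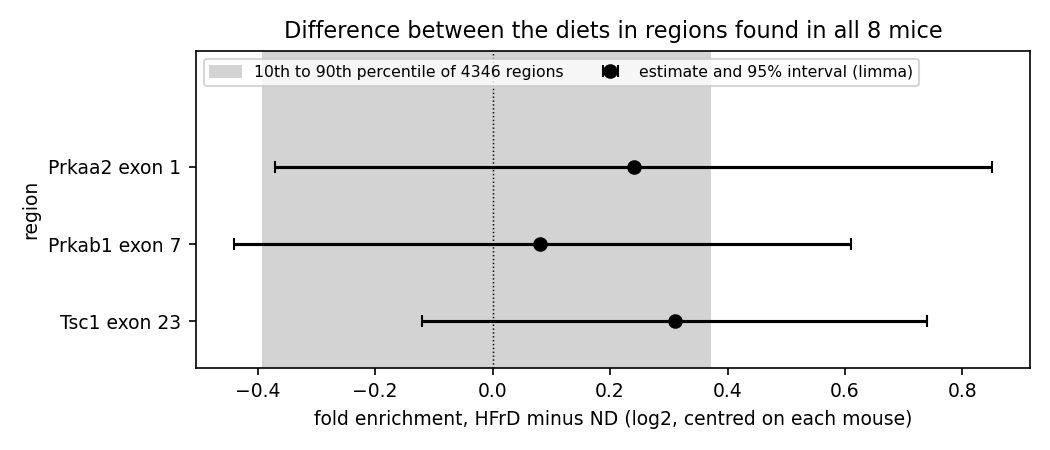
Difference in log2 fold enrichment, HFrD minus ND (x axis), for the 3 regions of these genes found in all 8 mice, with the limma estimate (point) and 95% interval (bar). The grey band is the 10th to 90th percentile of all 4346 regions, and all 3 points (0.24, 0.08 and 0.31) lie inside it with intervals that cross 0.

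Taking in regions found in at least 3 mice of each diet gave values for Prkaa1, Rptor and exon 1 of Prkab1 as well. There the differences were 0.02 for exon 7 of Prkaa1 (SE 0.24), -0.06 for the last exon of Rptor (SE 0.29) and -0.28 for exon 1 of Prkab1 (SE 0.25), with limma adjusted p of 0.986, 0.97 and 0.796 over 6435 regions.

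The same pathway was then followed beyond the 10 genes, in lists of its kinases, sensors and targets. Of 78 such genes, 40 had a peak, 16 of them in all 8 mice. In this wider set 14 genes had a peak in more ND than HFrD mice, 8 in more HFrD than ND mice and 18 in equally many. Peaks were present in 61.3% of cases in HFrD and 70% in ND. Over all genes with a peak the shares were 64.5% in HFrD and 70.2% in ND. The kinase that activates AMPK, LKB1 (Stk11), its scaffold Cab39 and the kinase TAK1 (Map3k7) had a peak in all 8 mice. So did Mtor, the kinase of both mTOR complexes, Akt1s1, which encodes the mTORC1 inhibitor PRAS40, and Prr5, a subunit of mTORC2. Downstream, Rps6kb1 (the S6 kinase) and the translation repressors Eif4ebp1 and Eif4ebp2 had a peak in all 8 mice, as did the AMPK targets Acaca and Acacb, the acetyl-CoA carboxylases, and Rb1cc1, an autophagy initiation subunit. In the lysosomal machinery Lamtor1, an anchor of Ragulator, and Fnip2, a partner of folliculin, did so too.

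Differences of 2 or more mice were seen in 6 of the 78 genes, of which 40 had a peak in any mouse. Deptor, an inhibitor of mTOR, had a peak in 4 HFrD and 2 ND mice (Fisher's exact test, p = 0.429, adjusted p = 1). The other 5 had it in more ND mice: folliculin (Flcn), Sesn1, a stress-induced inhibitor of mTORC1, and Tfeb, the transcription factor of lysosome genes, in 1 HFrD and 4 ND mice each (Fisher's exact test, p = 0.143, adjusted p = 1). Rps6kb2, the second S6 kinase, had it in 0 HFrD and 3 ND mice, and Seh1l, a subunit of the nutrient-sensing GATOR complex, in 0 HFrD and 2 ND mice. None passed after adjustment, which could not decide on single genes. Among all 7693 genes with a peak in any mouse, 355 were found in at least 2 more HFrD mice and 870 in at least 2 more ND mice. By list, the share of cases with a peak was 79.2% in HFrD and 70.8% in ND for the mTOR complex core, and 25% in HFrD and 45.8% in ND for GATOR and the amino acid sensors. It was 55.6% in HFrD and 72.2% in ND for mTOR effectors, and 66.7% in HFrD and 75% in ND for the Rag GTPases, Ragulator and folliculin. For the upstream kinases it was 75% in HFrD and 81.2% in ND, and for AMPK effectors 78.1% in HFrD and 81.2% in ND. Of the other TSC and Rheb genes Ddit4 alone had a peak, and Prkag3, the gamma subunit of muscle, had none.

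**Figure D5:**
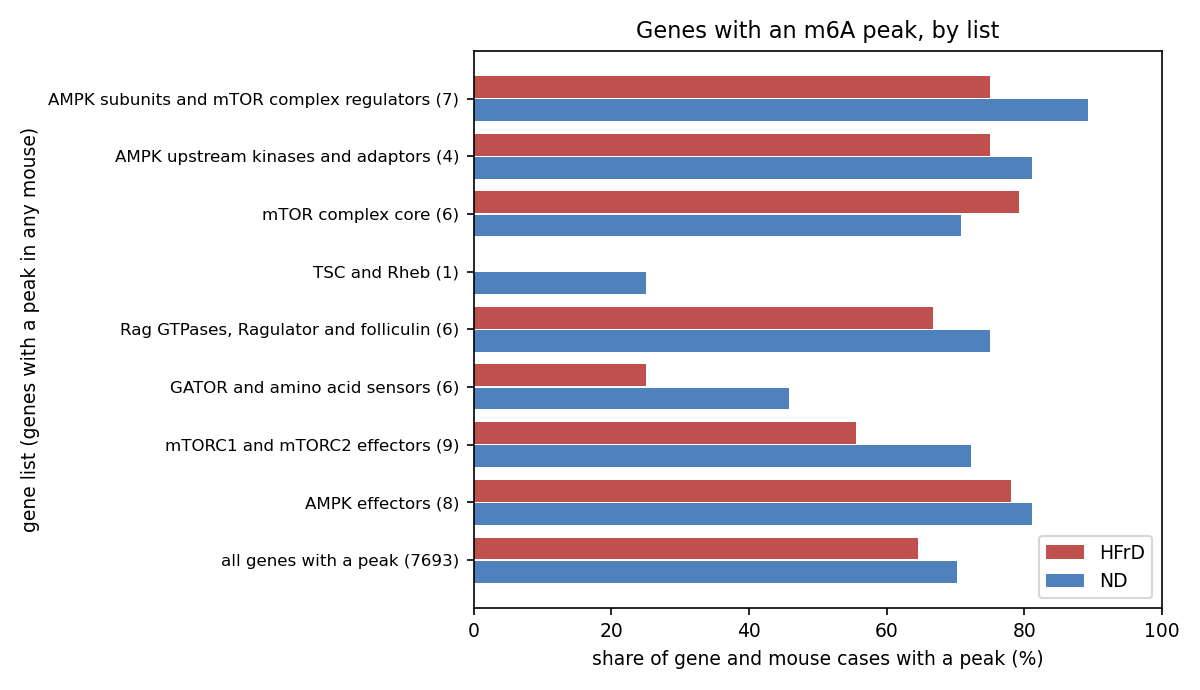
Share of gene and mouse cases with a peak (x axis, %) in HFrD (red, upper bar) and ND livers (blue, lower bar), by list, over the genes of the list with a peak in any mouse (number in brackets). The 7 genes described here stand at 75% in HFrD and 89.3% in ND, all genes at 64.5% in HFrD and 70.2% in ND, and of the lists shown only the mTOR complex core has the higher share in HFrD (79.2%, against 70.8% in ND).

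Genes whose presence over the 8 mice was identical to that of Prkaa1 numbered 200, and 132 shared the pattern of Rptor and 58 that of Rictor. None of these was among the 78 pathway genes. These counts are out of 7693 genes with a peak in any mouse, and the shared pattern is a count of mice only.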

How the data were processed

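Liver RNA of 8 mice (4 HFrD, 4 ND) gave 8 immunoprecipitated and 8 input libraries, sequenced in pairs of 150 bp. The submitters' processing notes name cutadapt 1.9.3, HISAT2 2.0.4 and the build mm10. The authors used MACS, in a version and with settings not given in the sources used here, to call peaks mouse by mouse, and kept those over mRNA exons. The deposited score is -10 log10 of the peak's p-value. The deposited fold enrichment is a ratio, and false discovery rates were deposited in percent. Columns of samples outside the series numbered 0. Each list was matched by its label to the immunoprecipitated library of that mouse.

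The 10 genes and the pathway and marker lists were chosen with earlier results of these data known. Genes were matched by name. Peaks of a gene that overlapped by 1 bp over the 8 lists were merged into regions. Presence in a list was compared by Fisher's exact test (genes or regions in 2 to 6 lists), peak number by an exact permutation test over 70 assignments (genes in at least 4 mice; smallest p 0.0286), and log2 of the highest fold enrichment per region by limma. Benjamini-Hochberg adjustment ran over all features tested. Starts fell on an exon start counted from 0 in 83.7% of peaks, so 1 was added. Positions and letters came from RefSeq and GENCODE M21 models of GRCm38.p6, available for 92.7% of peaks. The named genes are the 10 members, and of each list those that differed by 2 or more mice and up to 3 found in all 8 mice. The rule would have printed letters around GGACT in the region of highest fold enrichment. That region holds none, so the printed sequences were chosen after their letters were seen. The scripts were tested on simulated data. Python 3.11.15, numpy 2.4.6, pandas 2.3.3, scipy 1.17.1, matplotlib 3.10.9, R 4.3.3 and limma 3.58.1 were used. Alternatives were minimum values for fold enrichment (3) and score (100), equal list lengths, 50% coverage of a region, each mouse left out, a replicate block, no centring, a width-weighted mean and regions found in at least 3 mice of each diet.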

Additional observations from a re-analysis of the deposited data

How the results depend on the processing

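Under every alternative run, 0 of the 10 genes and 0 of their 16 regions separated the diets fully. Of the regions of these 10 genes compared in fold enrichment, 0 passed the threshold. The pathway and marker genes entered these alternatives only within the counts over all genes. The difference in the number of genes with a peak (-1 per mouse) was -0.5 when scores under 100 were dropped and -0.5 when lists had equal length, and ran from -1.25 to -0.75 with single mice left out. The difference in peaks (-1.25) ran from -2.17 to -0.75. Regions found in every mouse numbered 3, and 1 when scores under 100 were dropped. Over all genes, those separated toward HFrD numbered 12 and those toward ND 28, and in lists of equal length 21 separated toward HFrD and 19 toward ND. With single mice left out they numbered 16 to 28 toward HFrD and 39 to 68 toward ND. A group of 3 mice separates more readily. Regions of higher fold enrichment in ND numbered 0, and 0 to 1 with single mice left out. With single mice left out, the difference of the last exon of Prkab1 ran from -0.0618 to 0.343 and that of peaks of Rictor from -0.583 to 0.0833. The fold enrichment of the last exon of Prkab1 (0.08) was -0.00374 without centring, which moves the median of all regions by -0.09, and -0.0618 without ND mouse 3 and -0.00836 without ND mouse 7. The difference in peaks of Rictor (-0.25) turned to 0.0833 without HFrD mouse 5. The cause was not tested.

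Titles share mouse numbers 1 and 7 between the diets, and deviations of equally numbered mice correlated at 0.0429 and -0.0694, so the numbers were not taken to pair the mice. The replicate block of mice 1 and 7 gave 88 genes separated toward HFrD and 373 toward ND, with 2 mice a diet, and the last exon of Rictor was then found in 50 percentage points more HFrD mice. In limma the block gave 0.13 for Prkaa2, 0.19 for Prkab1 and 0.06 for Tsc1. It changed no other call. Limits are those of 4 mice a diet, for which Fisher's exact test cannot fall under p = 0.0286, and of peak lists without reads.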
